A study of Cryptomeria japonica with 72 samples.

Results

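The base of Cryptomeria japonica (sugi) stem cuttings was compared between 3 hours post insertion (3 hpi) and the moment of insertion (0 hpi). Of 72 one-colour arrays in the series, 6 belonged to this comparison: 3 arrays of the base at 3 hpi and 3 arrays of the base at 0 hpi, taken by their labels. All cuttings were of 1 clone, Tsukuba 1, so the arrays differ by cutting and not by genotype, and each array held the RNA of a separate cutting. Shoots were cut from field-grown donor trees in the morning and set in Kanuma soil, a rooting substrate, in a greenhouse that watered them automatically and was otherwise unregulated. At 0 hpi the cuttings had been off the tree for about 2 hours, so the tissue of both groups had been wounded. At 3 hpi the base had also stood underground in the soil, and the clock was 3 hours later, and these conditions cannot be told apart from the time since insertion. The arrays of the middle of the same stem, which stayed above the ground, served as a comparison (3 arrays at 3 hpi and 3 at 0 hpi).

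A cut stem first seals its wound and answers to the loss of its water and sugar supply, and new root primordia appear only much later. Among the earliest messengers of such tissue are the wound hormones jasmonate and ethylene, abscisic acid, a hormone of water shortage, and auxin, which flows down the stem and gathers at the cut. Cells that are short of oxygen turn from respiration to fermentation, in which pyruvate decarboxylase makes acetaldehyde and alcohol dehydrogenase turns it into ethanol, and plants sense this state through cysteine oxidases that mark group VII ERF factors for breakdown when oxygen is present.

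The array carried 19304 targets (reCj numbers, assembled transcripts), each on 3 or 4 spots. A level is given as the log2 of the background-corrected signal minus that array's 75th percentile, so that 0 stands for the 75th percentile of the array and 1 unit for a doubling, and levels of different targets are not compared. Names come from the best Arabidopsis thaliana match in the study's tables (E value below 1e-05) and the roles below are those of the Arabidopsis genes. The arrays were made from whole stem pieces, in which fewer cells of a type and less RNA per cell cannot be told apart.

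For 4 of the targets described below, the study's qRT-PCR primers are the transcript sequence at hand, and they identify the transcripts measured. They are given 5′ to 3′ in lower case, forward and then reverse, for the nitrate reductase target NIA1, the photosystem I target PSAO, the abscisic acid synthesis target NCED5 and the auxin carrier target PIN3. They are not the array probes.
NIA1 (reCj19463) forward: gccatgacgtgagattgttca
NIA1 (reCj19463) reverse: ggtagggagacccaagttttga
PSAO (reCj31726) forward: gggaagtcctctaagaaagcaaaa
PSAO (reCj31726) reverse: cctcagccaatctctctgaaaac
NCED5 (reCj20044) forward: ggtcgtcgtcattgggtctt
NCED5 (reCj20044) reverse: gagagctgcatcggactcatt
PIN3 (reCj18758) forward: gagccatgatgcgcagaat
PIN3 (reCj18758) reverse: tgaggataaggcgcgtcatt

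Between 76.4% and 80.5% of spots were well above background on the 3 hpi arrays and between 75.9% and 80.4% on the 0 hpi arrays, and no spot was saturated. One array stood apart. Over the 13143 tested targets, 3 hpi replicate 2 correlated with replicates 1 and 3 of its group at r = 0.880 and r = 0.888, while replicates 1 and 3 correlated at 0.988 and the 0 hpi arrays with each other at 0.975 to 0.981. The xylem marker targets, a list of wood-forming genes, had a summed level (linear signal over the 75th percentile) of 115.5 on that array, against 44.7 and 39.7 on the other 3 hpi arrays and 63.7 to 74.4 on the 0 hpi arrays. Its part in the results was not tested beyond leaving it out, and the values without it are given where they matter. In the middle of the stem, the 3 hpi arrays correlated with each other at 0.879 to 0.937 and the 0 hpi arrays at 0.960 to 0.987. The mean changes given for the middle thus come from 3 hpi arrays that differed among themselves.

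Within 3 hours of insertion, 2273 of 13143 tested targets changed (17.3%): 1070 rose (8.14%) and 1203 fell (9.15%) at 3 hpi against 0 hpi. A target was called changed when its limma adjusted p (Benjamini-Hochberg) was below 0.05 and its log2 difference reached 1 in either direction. The differences spanned 8.88 to -5.20 on the log2 scale, and 324 targets rose and 406 fell by 2 or more. The arrays of the 2 times did not overlap for 2218 of the 2273, which compares with 50.1% of all tested targets. Of the 4423 tested targets with a name, 23.2% changed, 13.0% up and 10.2% down, and the study listed them because they belong to clusters formed on these same arrays, so that each gene group below is set against these shares. Without 3 hpi replicate 2, 822 targets rose and 890 fell, and 1511 of these 1712 were also among the 2273. Scaling to each array's median in place of the 75th percentile shifted the median log2 difference of all tested targets to 0.19, against 0.014, and gave 1405 rises and 934 falls. The 3 hpi and 0 hpi arrays shared no slide. With slide as a fixed block in a fit of the 24 base arrays, where other times link the slides, 321 targets rose and 293 fell, and 560 of these 614 were among the 2273.

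The largest rise of all was that of reCj30462, an AP2/ERF-domain transcription factor. Its level was 6.27, 5.77 and 6.05 on the 3 hpi arrays, against -2.79, -3.54 and -2.21 on the 0 hpi arrays (log2 difference 8.88 ± 0.76, SE, 470-fold, limma adjusted p = 3e-10). The arrays of the 2 times lay far apart and each time held together within 1.4 units. The middle of the stem changed almost as much, by 8.41.

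**Figure D1:**
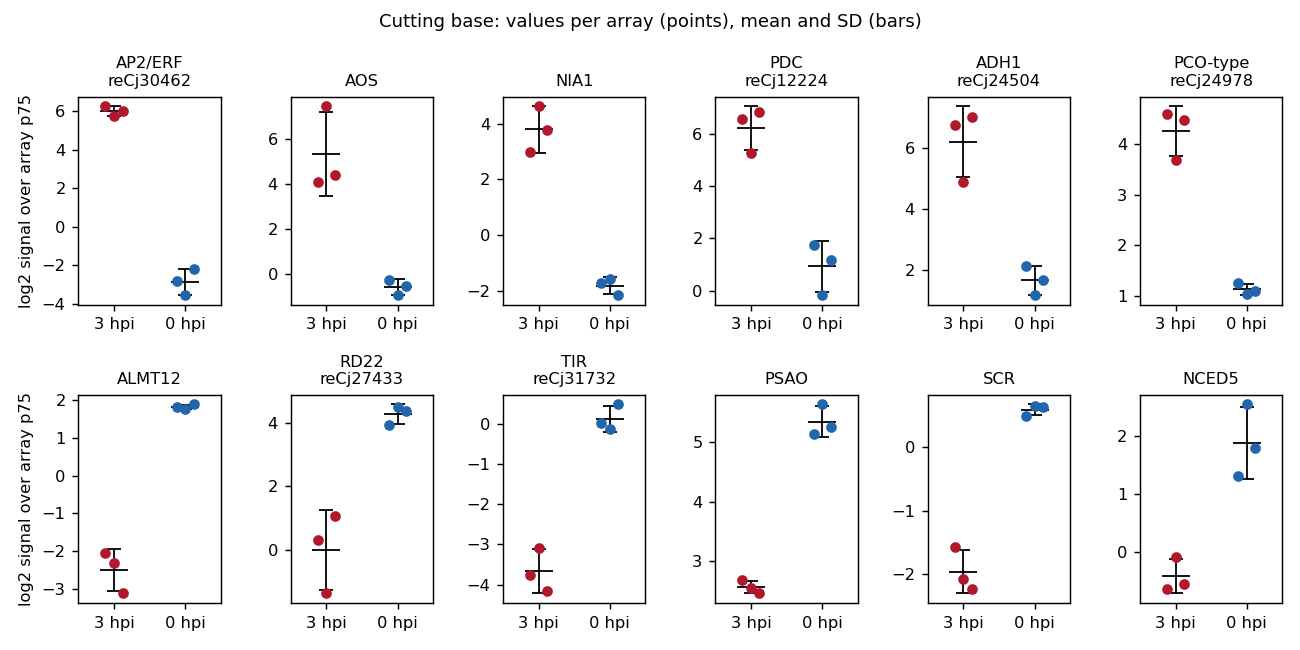
Levels of named targets on each base array (points), with the mean and SD (bars, n = 3), at 3 hpi and 0 hpi. The y axis is log2 signal minus the array's 75th percentile and differs between panels. In the upper row all 3 hpi arrays lie above all 0 hpi arrays, with AOS the most scattered at 3 hpi, and in the lower row they lie below.

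Genes of fermentation and of the low-oxygen response were among the strongest rises. In the list of sugar and fermentation genes, 10 of 38 tested members rose and 1 fell, against 13.0% and 10.2% of all named targets, and the 4 largest rises were 2 pyruvate decarboxylase and 2 alcohol dehydrogenase targets. Pyruvate decarboxylase reCj12224 had levels of 6.55, 5.26 and 6.83 at 3 hpi, against 1.75, -0.17 and 1.18 at 0 hpi (5.29 ± 0.95, SE, adjusted p = 6.86e-05). It was higher in every 3 hpi array by at least 3.5 units. The second decarboxylase target, reCj19600, was at 2.95, -0.82 and 2.92 at 3 hpi, against -1.97, -2.56 and -2.31 at 0 hpi (3.97 ± 0.73, SE, adjusted p = 9.17e-05). Replicate 2 of 3 hpi was the lowest of its group for both, and without it their differences were 5.77 and 5.22.

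Alcohol dehydrogenase, the next step of ethanol fermentation, rose likewise in both ADH1 targets. For reCj24504 the levels were 6.73, 4.87 and 7.0 at 3 hpi, against 2.14, 1.19 and 1.67 at 0 hpi (4.54 ± 0.95, SE, adjusted p = 0.000402). For reCj24166 they were 7.45, 7.04 and 7.82 at 3 hpi, against 3.45, 2.44 and 3.16 at 0 hpi (4.42 ± 0.83, SE, adjusted p = 0.00012). The arrays of the 2 times did not overlap for either, and the targets may share signal because both match the same gene. Of members named after their values were seen, the pyruvate kinase targets reCj20725 and reCj13828 rose by 2.49 ± 0.34 and 2.43 ± 0.33 (SE), and the alpha-amylase AMY1 (reCj24887), which breaks down starch, by 3.10 ± 0.60 (SE). Sucrose synthase targets SUS2 (reCj23945) and SUS3 (reCj19144) differed by 0.40 and 0.39 and did not pass the test, nor did enolase ENO1 (reCj22110) at 0.57.

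After these values were seen, all named targets matching ADH1, pyruvate decarboxylase, the cysteine oxidases, ERF71, ERF73 or the hypoxia-responsive family were drawn together, with no test on the group. Of 12 such targets 9 rose and none fell, against 13.0% and 10.2% of all named targets. Their log2 differences had a median of 3.23 at the base and of 2.54 in the middle. In 10 of the 12 the change was smaller in the middle, although none passed the test for a difference between base and middle. Because the targets were chosen with their base values known, these counts and medians are a description. With slide as a fixed block 7 of the 12 were still called, and without 3 hpi replicate 2 it was 10. The target closest to a plant cysteine oxidase of Arabidopsis, reCj24978, was at 4.60, 3.69 and 4.48 at 3 hpi, against 1.25, 1.04 and 1.09 at 0 hpi (3.13 ± 0.30, SE, adjusted p = 3.56e-09), and a second one, reCj13626, rose by 1.58 ± 0.20 (SE). A hypoxia-responsive family target, reCj32860, was at 4.81, 4.71 and 4.99 at 3 hpi, against 1.49, 1.05 and 1.26 at 0 hpi (3.57 ± 0.37, SE, adjusted p = 1.24e-08). The spread within either time was under 0.5 for this target, a small part of the change. A second target of that family, reCj34074, differed by 2.83 with 3 hpi replicate 2 down at -2.94 and did not pass (adjusted p = 0.0617, and 0.00708 without that array), and the third, reCj29442, differed by -0.05.

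Several ERF factors of group VII, which carry the low-oxygen signal, rose too. Of the 31 tested AP2/ERF targets 9 rose (29.0%) and 3 fell (9.7%), against 13.0% and 10.2% of all named targets. ERF71 (reCj28296) was at 2.30, 2.90 and 1.33 at 3 hpi, against -1.99, -0.55 and -0.75 at 0 hpi (3.27 ± 0.77, SE, adjusted p = 0.00135), and EBP (reCj29518) rose by 3.59 ± 0.54 (SE). One ERF73 target, reCj27669, was at 0.95, -2.60 and 0.20 at 3 hpi, against -3.25, -4.18 and -3.60 at 0 hpi (3.19 ± 0.93, SE, adjusted p = 0.00828), so its 3 hpi arrays were widely scattered though all above 0 hpi, and it lost its call without 3 hpi replicate 1 (2.48, adjusted p = 0.0611). The other ERF73 target, reCj27708, differed by 0.67 and did not pass. With slide as a fixed block EBP kept its call (4.06, limma adjusted p = 0.0182). ERF71 (1.91, adjusted p = 0.47) and reCj27669 (2.01, adjusted p = 0.567) lost theirs. Among other members, reCj32805 rose by 4.73 ± 0.61, while reCj33014 fell by 3.56 ± 0.48 (SE), and both ERF9 targets (reCj32003 and reCj31365), matching a repressor and named after their values were seen, fell by 2.95 and 2.47. ERF11 (reCj31076) was at 3.41, 1.90 and 3.54 at 3 hpi, against 3.66, 3.47 and 3.71 at 0 hpi, and did not pass.

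Nitrate reductase was among the 10 largest named rises. NIA1 (reCj19463), which reduces nitrate to nitrite, was at 2.97, 4.63 and 3.77 at 3 hpi, against -1.72, -1.57 and -2.16 at 0 hpi (5.60 ± 0.78, SE, 48.7-fold, adjusted p = 1.82e-06), with no overlap and with 5.42 in the middle. In the nitrogen list 2 of 8 tested members rose (25.0%) and 1 fell (12.5%), against 13.0% and 10.2% of all named targets. The ammonium transporter AMT2 (reCj22684) rose by 2.86 ± 0.47 (SE). Glutamine dumper GDU4 (reCj29477), an amino acid exporter, fell by 2.29 ± 0.62 (SE), a call that was lost without 3 hpi replicate 2 (-1.78, adjusted p = 0.0576). Outside the list, and named after their values were seen, UPM1 (reCj20858) makes the precursor of siroheme, the cofactor of nitrite reductase, and FC1 (reCj22303) is a ferrochelatase, which inserts iron into protoporphyrin to form haem, a cofactor of nitrate reductase. UPM1 was at 1.52, 2.91 and 2.23 at 3 hpi, against -1.80, -1.73 and -1.81 at 0 hpi (4.0 ± 0.35, SE, adjusted p = 4.39e-10). FC1 was at 1.32, 2.34 and 1.72 at 3 hpi, against -2.45, -2.56 and -2.31 at 0 hpi (4.23 ± 0.43, SE, adjusted p = 7.33e-09). Both were tight at 0 hpi and high in all 3 hpi arrays, whereas FC2 (reCj20916), the other ferrochelatase, differed by -0.23 and did not pass.

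CYSC1 and both SERAT1;1 targets were picked after their values were seen. CYSC1 (reCj25299), which in Arabidopsis removes the cyanide formed together with ethylene, was at 5.77, 6.34 and 6.07 at 3 hpi, against 1.77, 2.11 and 2.03 at 0 hpi (4.09 ± 0.45, SE, adjusted p = 5.44e-08). Serine acetyltransferase SERAT1;1, which makes the precursor of cysteine, rose in both of its targets, by 1.97 in reCj25201 and 1.22 in reCj31304, the second one only with 3 hpi replicate 2 in the fit (adjusted p = 0.0517 without it).

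Of 16 tested jasmonate genes 2 rose and 1 fell, and the 2 rises were large. Allene oxide synthase AOS (reCj23574), which commits fatty acid peroxides to jasmonate, was at 4.12, 7.48 and 4.41 at 3 hpi, against -0.27, -0.95 and -0.55 at 0 hpi (5.93 ± 1.35, SE, 60.9-fold, adjusted p = 0.00105). Replicate 2 stood 3 units above the other 3 hpi arrays, and without it the difference was 4.86 (adjusted p = 0.0169). The repressor JAZ1 (reCj27869) was at -0.02, 2.13 and -0.49 at 3 hpi, against -3.20, -4.27 and -3.04 at 0 hpi (4.04 ± 1.21, SE, adjusted p = 0.0104), and its call was lost without that same array (3.25, adjusted p = 0.0822). JAR1 (reCj23831), which joins jasmonate to isoleucine, fell by 1.02 ± 0.22 (SE), and by 0.82 without that array, which is below the size for a call. These shares lie close to those of all named targets, and the other AOS targets differed by 0.21 (reCj22720) and 0.74 (reCj21265) and did not pass.

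All 9 tested ethylene targets lay above 0 and 2 of them rose (22.2%, against 13.0% of all named targets). The ethylene receptor ETR2 (reCj18869) was at 2.17, 1.89 and 2.01 at 3 hpi, against 0.23, -0.07 and -0.32 at 0 hpi (2.08 ± 0.37, SE, adjusted p = 5.37e-05). The transcription factor EIL1 (reCj18439) rose by 1.04 ± 0.28 (SE), and without 3 hpi replicate 2 its difference was 0.50 (adjusted p = 0.132). Of the targets for ethylene synthesis, the oxygenase reCj26915 was at 4.54, 6.25 and 4.15 at 3 hpi, against 1.59, 2.64 and 2.36 at 0 hpi, and did not pass (2.78 ± 1.21, SE, adjusted p = 0.0778), EFE (reCj25195) and reCj31127 differed by 0.25 and 0.40, and ETO1 (reCj17974), which limits ethylene synthesis, differed by 0.77, below the size set for a call.

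The abscisic acid list, drawn by name, moved both ways, with 2 of 7 tested up and 2 down. That is 28.6% each way, against 13.0% and 10.2% of all named targets. The 2 that fell are named 9-cis-epoxycarotenoid dioxygenases, which cut carotenoids. Only NCED5 is taken here as a target of abscisic acid synthesis. NCED5 (reCj20044) was at -0.63, -0.08 and -0.54 at 3 hpi, against 1.31, 2.54 and 1.79 at 0 hpi (-2.29 ± 0.69, SE, adjusted p = 0.011), and without 0 hpi replicate 2 the call was lost (-1.96, adjusted p = 0.064). NCED4 (reCj22901) was at -1.41, -3.10 and -2.63 at 3 hpi, against -0.44, -0.01 and -0.16 at 0 hpi (-2.18 ± 0.53, SE, adjusted p = 0.002). The dioxygenase CCD1 (reCj21538) and the aldehyde oxidase reCj18051 differed by -0.80 and 0.24 and did not pass. On the response side, AFP3 (reCj18693) and the transcription factor ABF1 (reCj19233) rose by 2.41 ± 0.54 and 1.88 ± 0.39 (SE), and, outside the list, ABCG40 (reCj17987), an abscisic acid importer in Arabidopsis, was at 3.07, 5.27 and 4.12 at 3 hpi, against -1.30, -0.92 and -0.93 at 0 hpi (5.20 ± 1.19, SE, adjusted p = 0.00105).

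In the auxin list 5 of 30 tested members rose (16.7%) and 9 fell (30.0%), against 13.0% and 10.2% of all named targets (median -0.30). The efflux carrier PIN3 (reCj18758), which steers auxin flow, was at -2.95, -0.97 and -2.69 at 3 hpi, against 0.25, -0.17 and -0.14 at 0 hpi (-2.18 ± 0.56, SE, adjusted p = 0.00324), and without 3 hpi replicate 2 the fall was -2.80. The carrier EIR1 (reCj20172) was lower on every 3 hpi array but did not pass (-1.14 ± 0.45, SE, adjusted p = 0.051). The SAUR-like growth genes reCj28373 and reCj28650, fell by 2.78 ± 0.40 and 2.69 ± 0.53 (SE), and their arrays did not overlap. The Aux/IAA repressor IAA10 (reCj28641) rose by 2.11 ± 0.66 (SE) with 3 hpi replicate 2 at 3.36 and the other 3 hpi arrays at 1.41 and 0.98, and its call was lost without that array (1.39, adjusted p = 0.167).

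Auxin response factors, which read the hormone at promoters, moved in no common direction. Of the 5 ARF2 targets, reCj18202 and reCj18596 rose by 1.34 and 1.10, reCj18461 fell by 1.48, and reCj18164 and reCj18260 differed by 0.17 and 0.44. Without 3 hpi replicate 2 none of the 3 calls remained (0.89, 0.71 and -1.31). ARF4 (reCj18233 and reCj19155), ARF6 (reCj18826), ARF16 (reCj18418) and ARF19 (reCj17903 and reCj17966) were not called. Their differences were -0.99 and -0.27 (ARF4), 0.33 (ARF6), 0.23 (ARF16), and -0.79 and 0.59 (ARF19). The GH3 target DFL2 (reCj22862), whose family conjugates auxin, was at 1.12, -1.52 and 1.09 at 3 hpi, against -1.85, -1.77 and -1.75 at 0 hpi (2.02 ± 0.77, SE, adjusted p = 0.0448); its call was lost when any single array other than 3 hpi replicate 2 was left out.

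The cytokinin list held 10 tested members, of which 1 fell and none rose. The phosphotransfer protein AHP1 (reCj27357), a relay of the cytokinin signal, fell by 1.72 ± 0.34 (SE). Response regulators RR2 (reCj19270 and reCj18674), RR1 (reCj18133) and ARR9 (reCj27651) differed by -1.22, -0.06, 0.61 and -0.68 and did not pass.

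Root patterning genes of the GRAS family changed in opposite directions within 3 hours. SCARECROW (SCR, reCj20794), which in Arabidopsis specifies the endodermis and the root stem cell niche, was at -1.58, -2.08 and -2.25 at 3 hpi, against 0.49, 0.65 and 0.63 at 0 hpi (-2.56 ± 0.45, SE, adjusted p = 4.99e-05). All 3 hpi arrays of the base lay more than 2 units below all its 0 hpi arrays. In the middle the mean difference was -0.09, but the arrays were scattered. They were at -0.44, 0.49 and 1.99 at 3 hpi, against 1.16, 1.20 and -0.06 at 0 hpi. The limma test between base and middle did not pass (-2.47, adjusted p = 0.0914). SCL3 (reCj22196), which acts with SCR in Arabidopsis, was at 2.28, 2.15 and 2.03 at 3 hpi, against 0.48, 0.18 and 0.54 at 0 hpi (1.75 ± 0.46, SE, adjusted p = 0.00351). Of 2 SCL1 targets, reCj19489 fell by 1.88 ± 0.23 and reCj19040 rose by 1.33 ± 0.28 (SE). The SHORT-ROOT targets reCj24821 and reCj23597, partners of SCR, differed by -0.21 and 0.06, and LAS (reCj19429) fell by 1.28 ± 0.47 (SE), a call lost when any array but 3 hpi replicate 2 was left out. Together with LBD factors, of which LBD40 (reCj28422) rose by 4.0 ± 1.0 (SE), the list counted 5 rises and 4 falls among 19 tested. These were 26.3% and 21.1%, against 13.0% and 10.2% of all named targets.

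Photosynthesis genes were lower throughout at the base. All 13 tested members lay below 0, 8 of them fell and none rose, against 10.2% falls among named targets, and the median difference was -1.59, with -0.57 in the middle. PSAO (reCj31726), a subunit of photosystem I, was at 2.68, 2.55 and 2.47 at 3 hpi, against 5.14, 5.63 and 5.26 at 0 hpi (-2.78 ± 0.63, SE, adjusted p = 0.00105). LHCA4 (reCj27187), its antenna protein, was at 1.12, 0.38 and 0.75 at 3 hpi, against 3.30, 3.58 and 3.47 at 0 hpi (-2.70 ± 0.55, SE, adjusted p = 0.000292). The groups were tight and apart in both. PSAL (reCj29478), PSBTN (reCj09225), the ferredoxin FED A (reCj28559) and PSBW (reCj31558) fell by 2.12, 1.93, 1.92 and 1.74, and PSAL and PSBTN lost their calls without 3 hpi replicate 2 (adjusted p = 0.0625 and 0.0822). The list serves also as the marker list of green tissue. Its summed level at the base was 20.9 to 36.2 at 3 hpi, against 98.0 to 126.2 at 0 hpi, and all 13 members were well above background on all 6 arrays. In the middle the 3 hpi arrays differed widely, with sums of 45.5, 89.8 and 194.6, against 142.5 to 200.2 at 0 hpi. Without base 3 hpi replicate 2 the falls at the base numbered 4, with a median of -1.49, and with slide as a fixed block 2, with a median of -1.51.

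Among the 10 largest named falls were both RD22 targets and ALMT12. RD22, a dehydration-responsive BURP-domain protein, fell in both of its targets. For reCj27433 the levels were 0.29, -1.38 and 1.07 at 3 hpi, against 3.92, 4.50 and 4.38 at 0 hpi (-4.27 ± 0.80, SE, adjusted p = 0.000122), and reCj26866 fell by 4.22 ± 0.81 (SE). Both match the same gene and may share signal. ALMT12 (reCj24357), an anion channel of guard cells in Arabidopsis, was at -2.05, -2.32 and -3.12 at 3 hpi, against 1.81, 1.76 and 1.88 at 0 hpi (-4.31 ± 0.78, SE, 19.9-fold lower, adjusted p = 7.06e-05). The 0 hpi arrays were tight and every 3 hpi array lay more than 3 units below them. With slide as a fixed block the call of ALMT12 was lost (-3.62, adjusted p = 0.16). Of 7 tested aquaporins, water channels, 1 fell (14.3%, against 10.2% of all named targets), TIP4;1 (reCj26912) by 3.17 ± 0.61 (SE), and none rose. With slide as a fixed block none was called.

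Of 77 tested targets with TIR or NBS domains, the intracellular receptors of pathogens, 33 fell and 2 rose, against 10.2% and 13.0% of named targets (median -0.92, and -0.67 in the middle). The TIR-domain target reCj31732 was at -3.76, -3.08 and -4.16 at 3 hpi, against 0.01, -0.14 and 0.48 at 0 hpi (-3.78 ± 0.75, SE, adjusted p = 0.000227). The TIR-NBS-LRR target reCj26798 was at -1.52, -2.34 and -1.56 at 3 hpi, against 1.32, 1.84 and 1.62 at 0 hpi (-3.40 ± 0.26, SE, adjusted p = 1.82e-11). Neither overlapped between the times. Members of such families can be near copies of each other, so their signals may not all be independent. The count of falls was 26 without 3 hpi replicate 2 and 16 with slide as a fixed block. Receptor-like kinases, the receptors at the cell surface, gave 28 falls (31.5%) and 15 rises (16.9%) among 89 tested, the rises near the 13.0% of named targets. They were led by the leucine-rich repeat kinase reCj19312, which fell by 3.66 ± 0.70, and by RLK1 (reCj33076), which rose by 3.71 ± 1.06 (SE). The call of reCj33076 was lost without 3 hpi replicate 2.

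**Figure D2:**
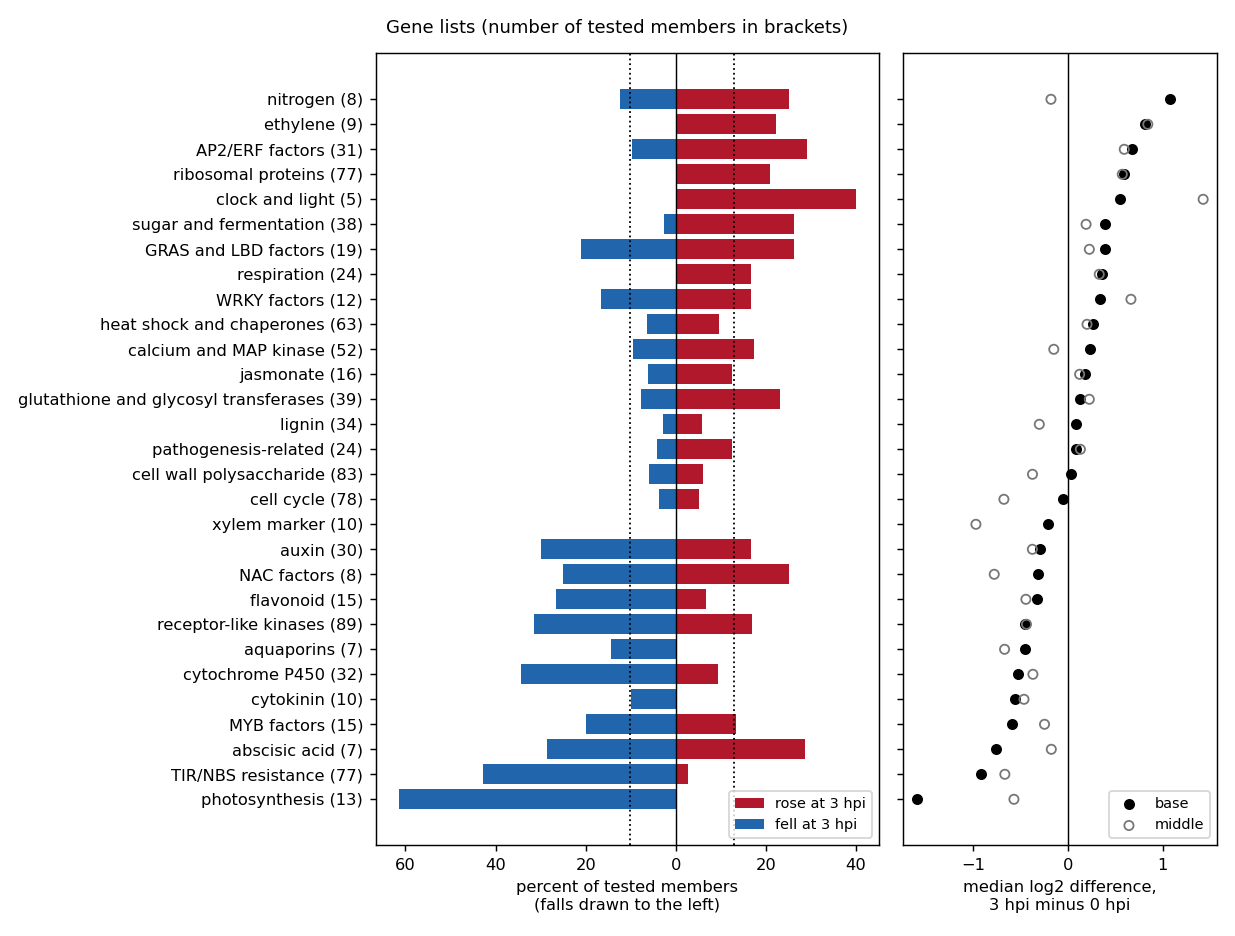
Share of tested members of each gene list that rose (right of 0) or fell (left of 0) at 3 hpi against 0 hpi at the base, in percent, with dotted lines at the shares of all named targets (13.0% and 10.2%), and at right the median log2 difference at the base (filled) and in the middle (open). Photosynthesis and TIR/NBS resistance have the longest falling bars, and ribosomal proteins have a rising bar and no falls.

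The counts of several lists rested in part on 3 hpi replicate 2. Without it the auxin list had 1 rise and 7 falls, the P450 list 2 and 4, the NAC list 0 and 3, the cytokinin list 1 and 2, the wall list 3 and 3, the cell cycle list 3 and 0, the lignin list none either way, and the jasmonate and ethylene lists 1 rise each and no fall. With slide as a fixed block the AP2/ERF list had 5 rises and 2 falls and the sugar and fermentation list 7 and 1, while the receptor-like kinases had 1 and 7, the auxin list 0 and 2, the P450 list 0 and 3, and the jasmonate and abscisic acid lists no call. Calls became fewer over all tested targets too, with 1712 without that array and 614 with the slide block, against 2273 in the main fit. Smaller counts are thus not particular to these lists. With the slide block 75 of the 142 named calls were lost. Among them were AOS (limma adjusted p = 0.278), XTH15 (0.163), PIN3 (0.0983), NCED4 (0.513), AMY1 (0.271) and SCL3 (0.221).

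Of 77 tested ribosomal proteins, 16 rose and none fell, 69 lay above 0, and the median difference was 0.60 (0.57 in the middle), which stayed above 0 under each scaling tried (0.46 to 0.77). The largest members were reCj27782, of the L7Ae family, at -1.01, 1.08 and -0.10 at 3 hpi, against -1.87, -2.34 and -2.18 at 0 hpi (2.12 ± 0.36, SE, adjusted p = 3.87e-05), and the acidic protein reCj30248, which rose by 1.73 ± 0.38 (SE). Replicate 2 was the highest 3 hpi array for both, and without it 7 members were called, with a median of 0.50. With slide as a fixed block the count was 5. In the main fit 20.8% of the list rose, against 13.0% of named targets. Fewer targets rose in all in the other settings. Of 13143 tested targets, 822 rose without 3 hpi replicate 2 and 321 with the slide block, against 1070 in the main fit. The respiration list gave 4 rises (16.7%, near the 13.0% of named targets) and no falls among 24 tested, and 1 rise with slide as a fixed block. The 4 were isocitrate dehydrogenases: IDH1 (reCj11976) rose by 2.21 ± 0.48, both IDH-V targets (reCj22072 and reCj13676) by 1.21 and 1.02, and the cytosolic cICDH (reCj09469) by 1.20. The call of reCj13676 was lost without 3 hpi replicate 2 or without 0 hpi replicate 2, where its difference was 0.91 either way, below the size for a call.

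Among glutathione S-transferases and glycosyltransferases, which tag toxic compounds, 9 of 39 tested rose (23.1%) and 3 fell (7.7%), against 13.0% and 10.2% of all named targets. Their median difference was 0.13, with -0.13 without 3 hpi replicate 2 and -0.14 with slide as a fixed block, where 2 rose and 1 fell. GSTU19 (reCj29412) was at 2.91, 3.44 and 2.89 at 3 hpi, against -0.96, -1.55 and -0.88 at 0 hpi (4.21 ± 0.94, SE, adjusted p = 0.000852). Of 32 tested cytochrome P450 targets 3 rose (9.4%) and 11 fell (34.4%), with CYP710A1 (reCj21195), a sterol desaturase, up by 4.40 ± 1.06 and CYP72A8 (reCj20472) down by 2.37 ± 0.36 (SE). In the flavonoid list 1 of 15 rose (6.7%) and 4 fell (26.7%), against the same 13.0% and 10.2%. Among the falls was F3H (reCj25835), which makes dihydroflavonols, at -4.05, -1.57 and -4.01 at 3 hpi, against -0.44, 1.40 and -0.34 at 0 hpi (-3.41 ± 0.84, SE, limma adjusted p = 0.00211). In F3H replicate 2 was the highest array at either time.

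Cell wall, lignin and cell cycle genes changed little as groups. Of 83 tested wall polysaccharide targets 5 rose and 5 fell, of 34 lignin targets 2 rose and 1 fell, and of 78 cell cycle targets, the marker list of dividing tissue, 4 rose and 3 fell. All these shares lie below those of named targets. The wall-loosening enzyme XTH15 (reCj27910), which cuts and rejoins xyloglucan, was an exception at 3.55, 3.05 and 3.53 at 3 hpi, against -1.38, -1.91 and 0.03 at 0 hpi (4.46 ± 0.75, SE, adjusted p = 2.9e-05). The target reCj19100, placed in the cell cycle list only by the name of its match (a G1/S-specific cyclin-E protein), also rose. It was at 1.36, 1.27 and 1.34 at 3 hpi, against -0.46, -1.19 and -0.21 at 0 hpi (1.94 ± 0.32, SE, limma adjusted p = 1.79e-05). The kinase CDKD1;1 (reCj21016) rose by 1.59 ± 0.26 (SE). None of 10 tested xylem markers was called (median -0.21). Their median was -0.70 without 3 hpi replicate 2 and 0.46 with slide as a fixed block, so its sign depended on the setting, and none was called in either. Cell cycle markers summed to 206.4 to 261.7 at 3 hpi, against 209.9 to 306.4 at 0 hpi, so their ranges overlapped.

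Of 12 WRKY targets 2 rose and 2 fell, with WRKY6 (reCj21192) and WRKY35 (reCj21614) up by 2.03 and 1.61, WRKY6 losing its call when any of 4 single arrays was left out, and WRKY55 (reCj21881) down by 3.15 ± 0.61 (SE). NAC factors gave 2 rises and 2 falls among 8, and NAC100 (reCj21359) fell by 3.12 ± 0.49 (SE). Calcium sensors and MAP kinases gave 9 rises and 5 falls among 52, MYB factors 2 and 3 among 15, heat shock proteins and chaperones 6 and 4 among 63, and pathogenesis-related proteins 3 and 1 among 24. Of all named targets 13.0% rose and 10.2% fell. The shares were 16.7% each way for WRKY targets, 25.0% each way for NAC factors, and 17.3% and 9.6% for calcium sensors and MAP kinases. The EF-hand calcium sensors reCj24741 and reCj30597 rose by 1.97 and fell by 2.19. Of 5 tested clock and light genes 2 rose: GIGANTEA (GI, reCj17945), a clock gene that peaks late in the day in Arabidopsis, was at 1.81, 2.68 and 1.66 at 3 hpi, against 0.33, 0.66 and 0.35 at 0 hpi (1.60 ± 0.22, SE, adjusted p = 1.61e-06), and PIF3 (reCj23186), a factor bound by phytochrome, rose by 1.88 ± 0.32 (SE). COR27 (reCj21964), a night-time clock regulator in Arabidopsis that was named after its value was seen, rose by 2.03 ± 0.22 (SE). The time of day and the time since insertion cannot be told apart in these genes or in any other.

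The remaining large changes belonged to targets of less certain role. Among the 10 largest named rises were a 2-oxoglutarate-dependent oxygenase (reCj25943, 5.02 ± 0.68) and a hydroxyproline-rich glycoprotein (reCj25798, 4.56 ± 0.54, SE). Among the 10 largest named falls were a heavy metal transport protein (reCj34125, -4.67 ± 0.55), a membrane protein of unknown function (reCj30237, -4.60 ± 0.67), an SSUH2-like protein (reCj30532, -4.28 ± 0.86), the carnitine transporter OCT1 (reCj12899, -3.81 ± 0.84) and a DUF1680 protein (reCj18762, -3.73 ± 0.60, SE). Targets with no name reached the same sizes. The largest rises among them were reCj13364 (6.54 ± 1.37) and reCj24157 (6.35 ± 0.93), and the largest falls were reCj33363 (-5.20 ± 0.48), reCj29430 (-4.68 ± 0.71) and reCj33113 (-4.68 ± 0.64, SE).

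Some targets were measured at 1 time alone. For 49 targets every spot was well above background on all 3 hpi arrays and none on any 0 hpi array, and for 53 it was the reverse. With spots judged instead by the scanner software's call of positive and significant signal, the numbers were 2 and 4. For these only a bound can be given, the mean of the bright arrays over the lowest signal that counted as well above background, or the target's own where higher, on each dim array. The median bound was at least 4.54-fold for targets seen at 3 hpi and at least 2.85-fold for those seen at 0 hpi. Of all these targets 1 had a name, the AP2/ERF factor reCj20896, which was at -8.08, -5.37 and -7.60 at 3 hpi, not well above background, against -2.86, -3.06 and -3.83 at 0 hpi, and so was at least 3.88-fold lower at 3 hpi.

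Most of the change at the base was shared by the middle of the stem. Of the 2273 targets called at the base, 2195 had a difference of the same sign in the middle. The targets that rose at the base had a median of 1.58 there and 1.12 in the middle, and those that fell had a median of -1.63 there and -0.86 in the middle. They were chosen by their change at the base, so these medians are a description. Over the 13143 tested targets, which are not independent replicates, the changes at base and middle correlated at r = 0.790. By the study's account 3 cuttings served each time, so the base and middle arrays of 1 time come from the same cuttings. The fit took these arrays as independent.

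**Figure D3:**
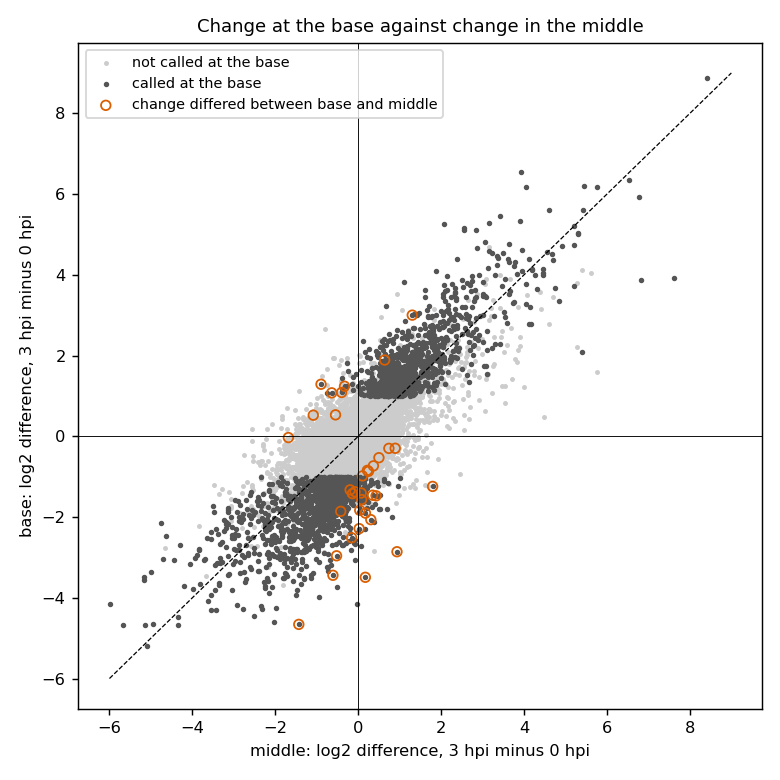
Log2 difference, 3 hpi minus 0 hpi, at the base (y axis) against the middle (x axis) for each tested target, with targets called at the base in dark grey and those whose change differed between base and middle circled. Most targets called at the base have the same sign in the middle, with smaller medians there (1.12 against 1.58 for rises, -0.86 against -1.63 for falls). Most circled points lie below the dashed line of equal change.

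The difference between the 2 changes was tested directly. It passed for 35 of 12992 tested targets (0.269%), being above 0, base minus middle, for 9 (0.0693%) and below 0 for 26 (0.2%). The largest belonged to the unnamed target reCj32680. It was at -3.61, -2.26 and -2.47 at 3 hpi, against 0.19, 0.69 and -0.64 at 0 hpi at the base, and differed by 0.94 in the middle (-3.79 between base and middle, adjusted p = 0.019). Next were the unnamed targets reCj26581 (-3.66, adjusted p = 0.00651) and reCj33549 (-3.23, adjusted p = 0.019). A 2-oxoglutarate-dependent oxygenase named after its value was seen, reCj24171, fell by 3.44 at the base and differed by -0.61 in the middle. On the other side, reCj18104, matching an extra-large G-like protein, rose by 1.29 at the base and differed by -0.90 in the middle (2.19, adjusted p = 0.019). Its call at the base was lost without 0 hpi replicate 2 (0.90), in a fit of the arrays compared alone and with slide as a fixed block (adjusted p = 0.158). The cellulose synthase CESA2 (reCj17990), of primary walls, rose by 1.08 at the base and differed by -0.64 in the middle (1.72, adjusted p = 0.019), with 0.91 at the base without 3 hpi replicate 2. The CDP-diacylglycerol synthase family target reCj20832, of phospholipid synthesis, rose by 3.00 at the base and differed by 1.30 in the middle (1.70, adjusted p = 0.0446). The number of such targets depended on single arrays. It was 242 without middle 3 hpi replicate 1, 122 without base 3 hpi replicate 2, 30 without base 0 hpi replicate 3, and 2 to 19 without each of the other arrays. A fit of these arrays alone, without the other times, called 0, where the fit of 48 arrays had 1129 targets at an unadjusted p below 0.05.

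Over the 8 times at the base, the changes of the first 3 hours followed different courses. NIA1 was at 0.34 ± 0.69 at 0 hours post excision (0 hpe), -1.82 ± 0.31 at 0 hpi, 3.79 ± 0.83 at 3 hpi and 2.32 ± 0.59 at 1 day (SD, n = 3 each), and stayed between 1.64 and 3.29 to 6 weeks. ADH1 (reCj24504) was at 0.37 ± 0.22 at 0 hpe, 1.67 ± 0.48 at 0 hpi, 6.20 ± 1.16 at 3 hpi and 6.68 ± 0.41 at 1 day, and was at 4.28 ± 1.60 at 6 weeks. Pyruvate decarboxylase reCj12224 had its highest mean, 6.21 ± 0.84, at 3 hpi, and was at 4.26 ± 0.17 at 1 day and -1.63 ± 0.48 at 3 weeks. The fermentation targets thus stood at or near the top of their course at 3 hpi. RD22 (reCj27433) was at 5.34 ± 0.89 at 0 hpe, had its lowest mean, -0.01 ± 1.25, at 3 hpi, and was at 4.19 ± 0.65 at 6 weeks. SCR was also lowest at 3 hpi, at -1.97 ± 0.35, with 0.38 ± 0.27 at 1 week and -1.68 ± 0.66 at 6 weeks, the last within the spread of the 3 hpi arrays. PSAO was at 2.57 ± 0.11 at 3 hpi, 4.16 ± 0.43 at 1 day and 0.86 ± 1.04 at 6 weeks, so that its 3 hpi low lay between 2 higher means and was passed again later.

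**Figure D4:**
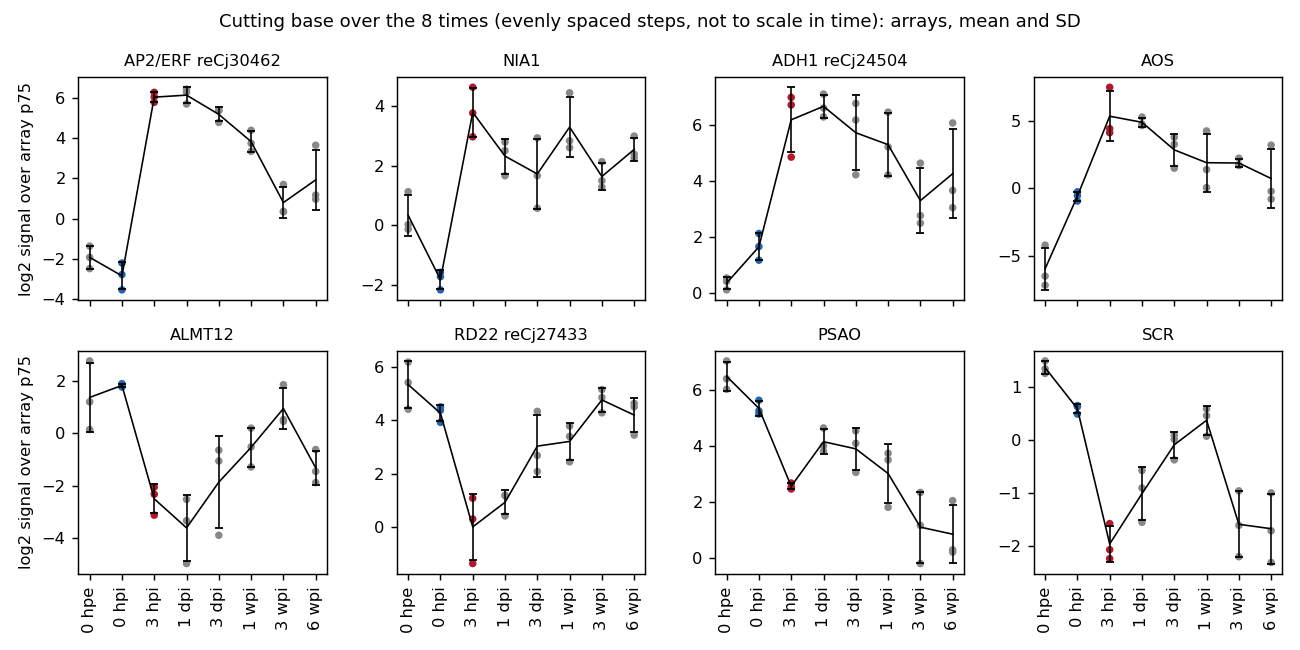
Levels of 8 targets at the base over the 8 sampling times (x axis, evenly spaced steps from 0 hpe to 6 weeks), each array as a point and the line through the means with SD (n = 3). The y axis is log2 signal minus the array's 75th percentile, and 0 hpi and 3 hpi arrays are blue and red. The upper 4 targets step up at 3 hpi and the lower 4 step down.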

How the data were processed

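RNA of 1 cutting per array was labelled with Cy3, hybridised to custom Agilent arrays and read with Agilent Feature Extraction 11.5 by the authors. The deposited intensity files hold background-subtracted signals per spot. The authors' deposited log2 table, scaled to the 75th percentile and centred per probe, was an alternative. Spots of a target were averaged, log2 was taken and each array's 75th percentile subtracted. A target was tested when, on all 6 arrays, every spot was well above background, none was flagged non-uniform and its mean signal exceeded 10 (all 12 for the difference between base and middle). limma 3.58.1 in R 4.3.3 fitted 1 mean per part and time over 48 base and middle arrays, with p-values adjusted over all tested targets. For the base, they measure the spread between cuttings of 1 part and time, pooled over the groups. Base and middle arrays of shared cuttings were fitted as independent. The p-values for the difference between base and middle do not take this sharing into account. On simulated data, 74 of 100 differences of 1.5 and 91 of 100 of 3 were recovered over 13143 targets at the base with 8 other calls, and 61 and 91 over 12992 targets between base and middle with 6 other calls. Normexp used the median signal, in the absence of a mean signal column. With slide as a random block the correlation was -0.0086 and 2268 targets were called.

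Lists were drawn by name patterns from the study's tables, and the comparison, lists and tests were chosen with earlier results of these data known. Named are the 10 largest named rises and falls with arrays not overlapping, the 3 largest each way of any annotation, up to 4 called members per list, all tested targets of the study's primer and rooting tables, the 3 largest each way between base and middle, and up to 4 bounds each way. Members of a list named beyond these, called or not, were chosen after their values were seen. Needle arrays were not used here.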

Additional observations from a re-analysis of the deposited data

Results flagged for a closer look

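The change at 3 hpi against 0 hpi differed between base and middle for 35 targets by the test of the difference itself (limma, adjusted over 12992 targets), and 24 of these had opposite signs in the 2 parts. The 24 include targets that hardly changed in the middle, such as reCj21710 (0.02) and reCj22487 (0.04). Others changed more, such as reCj24615 (-1.24 at the base and 1.79 in the middle). All were chosen by the difference between the parts, so the count of signs is a description. The differences of the change, base minus middle, were -3.79 for reCj32680, -3.66 for reCj26581, -3.23 for reCj33549 and -2.83 for the oxygenase reCj24171. They were 2.19 for reCj18104, 1.72 for CESA2 (reCj17990) and 1.70 for reCj20832. For EDS1 (reCj20440), a defence regulator that was named after its value was seen, the difference was 1.65: the base differed by -0.03 and the middle by -1.68. Groups of 3 arrays are too small for a check of single outlying values.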

How the results depend on the processing

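At the base 2273 targets were called, and of all alternatives only slide as a fixed block in the 24 base arrays moved that count by over 1.5 times (614). Other scalings, filters, array sets and the authors' table gave 1672 to 2834, and leaving out single arrays 1712 to 2493. Of 142 named calls, 64 held under every alternative that gave a value, 101 under all but the fixed slide block, and none turned its sign. For the difference of the change between base and middle, 35 targets were called, against 3 with normexp, 5 with quantile normalization, 4 with array medians, 23 with no filter and 0 in a fit of the arrays compared alone, and 2 to 242 when single arrays were left out. The fixed slide block was not run for it, so its dependence on slide was not tested. The fit of base arrays alone holds no middle arrays and does not apply to it. The 49 targets seen only at 3 hpi were 2, and the 53 seen only at 0 hpi were 4, with spots judged as positive and significant. Leaving out single arrays gave 55 to 83, 83 being without base 3 hpi replicate 2, and 54 to 99, with 99, 95 and 86 without base 3 hpi replicates 1 and 2 and base 0 hpi replicate 1. The cause of these shifts was not tested. The replicate numbers did not pair the arrays: deviations of same-numbered arrays correlated at -0.0054, 0.22 and 0.0088. With replicate number as a block 2266 targets were called at the base and 34 between base and middle, and 2 named calls were lost. Precision is limited by the number of arrays, 3 a group.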
